A study of Homo sapiens with 4 samples.

Results

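ATP1B3 encodes the beta 3 subunit of the sodium pump, and it was examined together with the other beta subunit genes of the pump, ATP1B1 and ATP1B2. Spots were taken where the gene name printed on the array was one of these 3 names, which gave 3 of the 30982 gene names and 4 of the 41000 probes on the array. ATP1B3 was chosen by its brightness and by its value on the FaDu miR-489 array, where it was among the genes with the lowest ratios. Its values are therefore given as a description without a test, and ATP1B1 and ATP1B2 were taken in as the other beta subunits of the family.

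The study asked which transcripts fall when a microRNA is put back into head and neck cancer cells. Total RNA was compared on 4 two-colour Agilent 44K arrays, 1 for each combination of cell line and microRNA, 72 h after transfection. FaDu is a line of hypopharyngeal squamous cell carcinoma and HSC3 is a line of oral squamous cell carcinoma. On each array the Cy5 channel held RNA of miR-489 or miR-504 transfectants and the Cy3 channel held RNA of that line after transfection of a control miRNA, so all RNAs came from transfected cells. Dyes were not swapped, the arrays lay on 1 slide, and the labels do not say whether both arrays of a line shared one control RNA. Each group was thus 1 array of a single established line, and no change on 1 array could be set against a spread between cultures. Where 4 values are given in a row, FaDu comes first, miR-489 before miR-504, and HSC3 follows in the same way.

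The sodium pump, or Na,K-ATPase, uses ATP to carry sodium out of the cell and potassium in, and so keeps the ion gradients that drive secondary transport in epithelia. It consists of a catalytic alpha subunit, which hydrolyses ATP and binds ouabain, and a glycosylated beta subunit, which is needed for the alpha subunit to fold and reach the plasma membrane and which also takes part in cell adhesion. Small FXYD proteins bind the complex and adjust its affinity and turnover.

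A microRNA recognises transcripts mainly through its seed, bases 2 to 8 of the mature strand, so the mature sequences are shown with the seed in capitals. They are written 5′ to 3′ as given by RefSeq. The labels name no arm for either microRNA. For miR-504 both arms are shown, and for miR-489 the 3p arm is shown, with the doubt that the arm transfected is not stated.
hsa-miR-489-3p: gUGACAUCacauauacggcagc
hsa-miR-504-5p: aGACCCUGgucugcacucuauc
hsa-miR-504-3p: gGGAGUGCagggcaggguuuc
In build GRCh38.p14 the first lies at chr7:93483947-93483968, and the miR-504 strands lie at chrX:138667760-138667781 for the 5p arm and chrX:138667724-138667744 for the 3p arm, all on the minus strand. No pair of these 3 had the same seed. The miR-489-3p and miR-504-5p seeds carried the same base at 2 of 7 positions, and the miR-489-3p and miR-504-3p seeds at 3 of 7. A transcript with a perfect match to the miR-489-3p seed would hold GATGTCA. Transcript sequences of the pump genes were not analysed here, so no site is reported for any of them from these data. The study itself listed ATP1B3 among the genes lowered by miR-489 in FaDu, with a predicted miR-489 target site.

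All 6 squamous epithelial markers on the array (KRT5, KRT14, KRT17, TP63, SFN and CDH1) were well above background in the control channel of each array. None of 7 fibroblast, blood and endothelial markers was above background on all arrays (0 of 7), and 3 of them were on at least 1 array. PTPN11, the phosphatase gene the study followed up as a target, had log2 ratios of −3.25, −1.29, −3.22 and −1.04. Probes with at least 5 spots had a spot-to-spot standard deviation of 0.0887 to 0.108 in log2 ratio. This covers error within an array only, and the member probes had 1 spot each.

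ATP1B3 was 3.59-fold lower in FaDu and 3.29-fold lower in HSC3 in miR-489 transfectants than in control transfectants, and 1.31-fold and 1.27-fold lower in miR-504 transfectants. Its probe (A_23_P68007, matching NM_001679 on chromosome 3) read 24825 in the control and 10360 in the miR-489 channel of the FaDu array, in background-subtracted scanner units. The HSC3 miR-489 array read 17764 in the control and 8099 in the miR-489 channel. On the miR-504 arrays the control and miR-504 channels read 19919 and 23838 in FaDu and 25325 and 27113 in HSC3.
The Cy5 channel was brighter than Cy3 on every array, by a median of 0.45 to 0.65 on the log2 scale, and this median was removed from all ratios that follow. After that, ATP1B3 stood at 27.9% of control in FaDu (log2 ratio −1.84) and 30.4% in HSC3 (−1.72) with miR-489. With miR-504 it stood at 76.2% in FaDu (−0.39) and 78.6% in HSC3 (−0.35). The choice of ATP1B3 rested on the FaDu miR-489 array, but earlier results of these data were known when the members were chosen. Its log2 ratios in the lines lay 0.12 apart with miR-489 and 0.04 apart with miR-504, whereas those of the microRNAs lay 1.45 apart in FaDu and 1.37 apart in HSC3. Fewer cells that express a gene and less RNA per cell cannot be told apart in RNA of whole cultures.

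**Figure D1:**
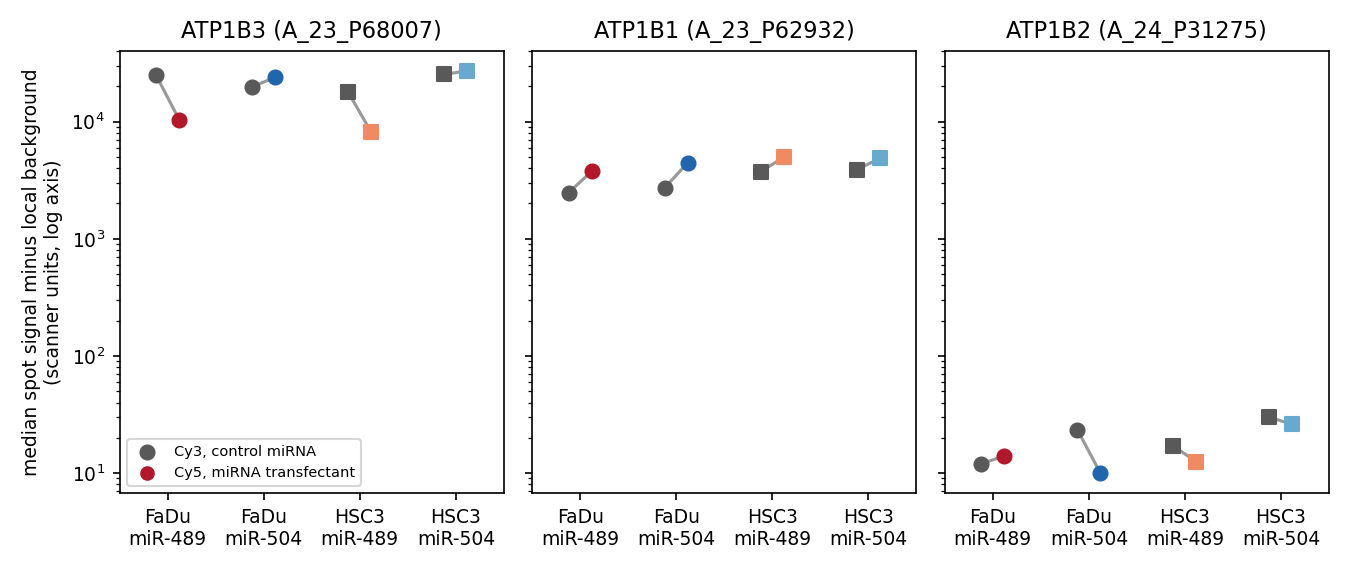
Background-subtracted signals (log axis, scanner units) of 1 probe each of ATP1B3, ATP1B1 and ATP1B2 on the 4 arrays, before the array-wide offset between the dyes was removed; grey points are control RNA (Cy3), coloured points RNA of the miRNA transfectants (Cy5), circles FaDu and squares HSC3. The miRNA channel of ATP1B3 lies below its control on both miR-489 arrays and above it on both miR-504 arrays, and all ATP1B2 signals are at or below 30.

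The ATP1B3 probe lay at the 98.2 to 98.8 percentile of control brightness. None of the spots used was saturated (0 on each array). Probes at this brightness varied little between spots, with standard deviations of 0.0324 to 0.0382 over 12 to 16 repeated probes per array.
Among 15604 genes measured in both channels on all 4 arrays, ATP1B3 was the 60th lowest on the FaDu miR-489 array and the 70th lowest on the HSC3 miR-489 array. That set leaves out genes whose miRNA channel was not above background on some array. With the control channel alone required, 187 of 17704 genes in FaDu and 166 of 17847 in HSC3 were at least 4-fold lower with miR-489. All of these lay below ATP1B3. On the miR-504 arrays ATP1B3 was the 3359th and 3720th lowest of the 15604 genes. Against 468 genes with spots as bright or brighter, it was the 2nd lowest and the lowest on the miR-489 arrays and the 133rd lowest on each miR-504 array. Of those 468 genes, 61 in FaDu and 57 in HSC3 were at least 2-fold lower with miR-489, and 73 and 56 with miR-504.

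ATP1B1, the beta subunit most widely used by epithelia, showed no comparable deficit. Its brighter probe (A_23_P62932, NM_001677, chromosome 1) read 2474, 2730, 3730 and 3895 in the controls. Its log2 ratios in the same order were 0.03, 0.06, −0.17 and −0.13.
All 4 values lay near 0, and the signs of all but the HSC3 miR-504 value changed with the processing. Under loess the FaDu values were −0.107 and −0.027, under total-signal scaling −0.178 and −0.114, and with the mean of both probes the HSC3 miR-489 value was 0.017. The second ATP1B1 probe (A_23_P146943) gave 0.34, 0.33, 0.20 and 0.01 in that order, higher than the first probe on every array. ATP1B2, the beta subunit of glia and neurons (A_24_P31275, NM_001678, chromosome 17), was not well above background in either channel on any array, with control signals of 12 to 30, and no ratio is given for it.

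ATP1A4, the alpha subunit of sperm, was read as a partner of the beta subunits in the pump. At its brightest probe (A_24_P307626) it had log2 ratios of 0.21 and 0.47 with miR-489 and 0.07 and 0.37 with miR-504, in FaDu and HSC3. A second ATP1A4 probe (A_23_P160177) ranged from 0.17 to 0.38, and another (A_24_P333420) was not well above background on any array. Their control signals on the FaDu miR-489 array were 1039, 683 and 19 in that order. Which of these probes reports the ATP1A4 transcript was not tested. No ATP1A4 probe reached 2-fold on any array.

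FXYD5, or dysadherin, which binds the pump and weakens cell adhesion, was higher in the miRNA channel on all 4 arrays. Its brighter probe (A_23_P130995) read 783 in control and 3155 in miR-489 transfectants of FaDu, and 938 in control and 3562 in miR-504 transfectants of that line. In HSC3 it read 4718 and 16383 with miR-489 and 4811 and 17321 with miR-504. The log2 ratios were 1.43 and 1.21 with miR-489 and 1.27 and 1.40 with miR-504, in FaDu and HSC3.
The values for the microRNAs overlapped. The dimmer FXYD5 probe (A_24_P194081) also lay above 0 on each array, but stayed under 2-fold, with log2 ratios of 0.64 to 0.85. Since the Cy5 channel held the miRNA transfectants on every array, an effect of the dye on these probes, an effect of any transfected microRNA against this control and an effect of both microRNAs cannot be told apart.
FXYD3, a regulator found in epithelia and many carcinomas, had ratios of 0.01 and −0.09 with miR-489 and 0.49 and 0.16 with miR-504. FXYD2 and FXYD6 had control signals of at most 45, and the brightest probe of FXYD2 was measured in both channels on the HSC3 miR-489 array alone, at 0.46. FXYD1, FXYD4 and FXYD7 were not well above background on any array. The same held for the muscle protein ATP1B4, for the proton pump subunits ATP4A, ATP4B and ATP12A, and for NKAIN1 to NKAIN4, which bind beta subunits.

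**Figure D2:**
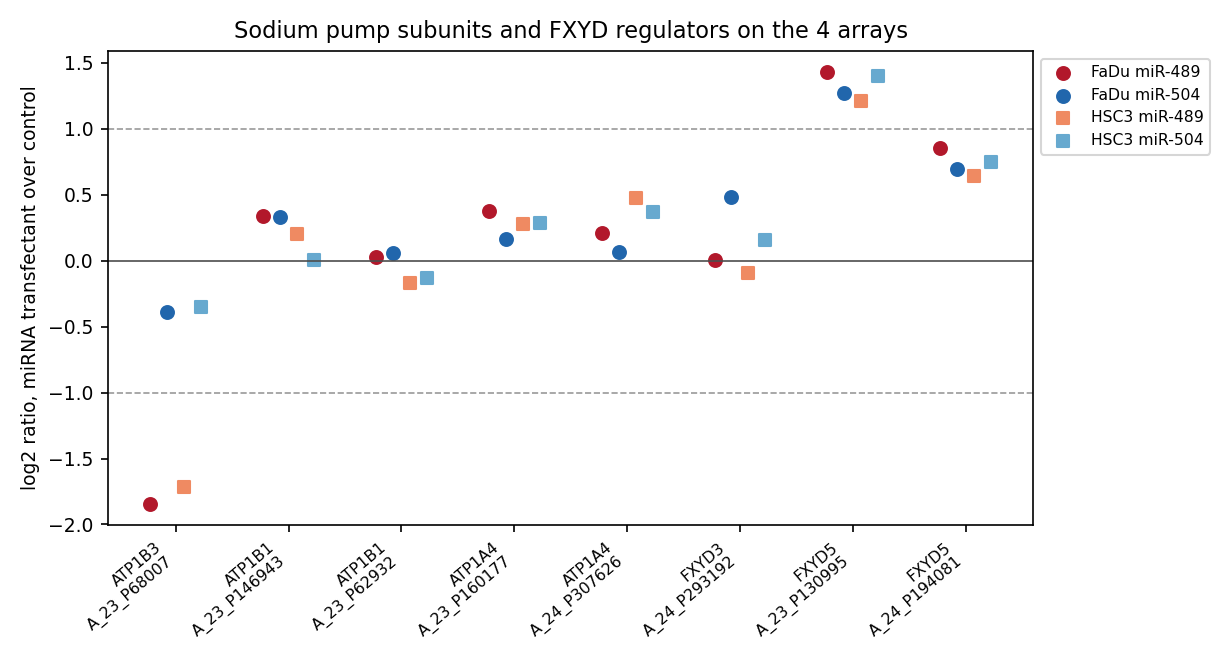
Log2 ratio of miRNA transfectant over control (vertical axis, centred on each array's median) for every probe of the reported pump subunits and FXYD regulators measured on all 4 arrays; each point is 1 array, circles are FaDu, squares are HSC3, and dashed lines mark 2-fold. ATP1B3 is the gene below −1, at −1.84 and −1.72 on the miR-489 arrays, and FXYD5 is the gene above 1, at its brighter probe on all 4 arrays.

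Genes entered the count of lower ones if their control channel was well above background, and the count of higher ones if their miRNA channel was. Of the pump subunit, FXYD and NKAIN genes reported here, 1 of 5 was at least 2-fold lower on the FaDu miR-489 array, where 8.78% of all genes were, and 1 of 6 on the HSC3 miR-489 array, where 8.15% were. On the miR-504 arrays 0 of 5 were lower in FaDu and 0 of 5 in HSC3, against 5.98% and 5.11% of all genes. The 1 gene lower was ATP1B3 in each case, and its count on the FaDu array was fixed by the way it was chosen.
In the other direction, FXYD5 was the 1 gene at least 2-fold higher on each array. It was 1 of 7, 1 of 6, 1 of 6 and 1 of 5 genes on the 4 arrays, where 2.86%, 2.34%, 2.71% and 1.97% of all genes were higher. The median log2 ratio of these genes was 0.03, 0.07, 0.18 and 0.16 in that order, and that of all genes lay between −0.02 and −0.01.

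Taking the miR-504 ratio from the miR-489 ratio within a line removes whatever both arrays share, such as a dye effect of a probe. A gap between the control RNAs of the arrays is not removed. The ATP1B3 control levels (log2 Cy3 minus the array median) were 6.18 and 5.88 in FaDu and 5.62 and 5.87 in HSC3, miR-489 array first. Their share in the difference was not tested. This difference of log2 ratios was −1.45 in FaDu and −1.37 in HSC3 for ATP1B3. It ranked 103rd lowest in FaDu and 66th lowest in HSC3 among the 15604 genes measured in both channels on all arrays. Among the 468 genes with spots as bright or brighter it was lowest in both lines. The FaDu difference holds the value by which ATP1B3 was chosen. Brightness was also part of that choice, so these ranks are a description. A difference of at least 2-fold in this direction was seen for 2.08% of the 15604 genes in FaDu and 1.49% in HSC3, and for 6 and 2 of those 468 genes.
Of the pump subunit and FXYD genes reported here and measured on all arrays, the 4 others had differences of −0.48 to 0.16 in FaDu and −0.25 to 0.10 in HSC3. ATP1B1 was at −0.03 and −0.04, ATP1A4 at 0.14 and 0.10, and FXYD3 at −0.48 and −0.25, in FaDu and HSC3. The lowest and highest of these 4 in FaDu were FXYD3 and FXYD5.

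**Figure D3:**
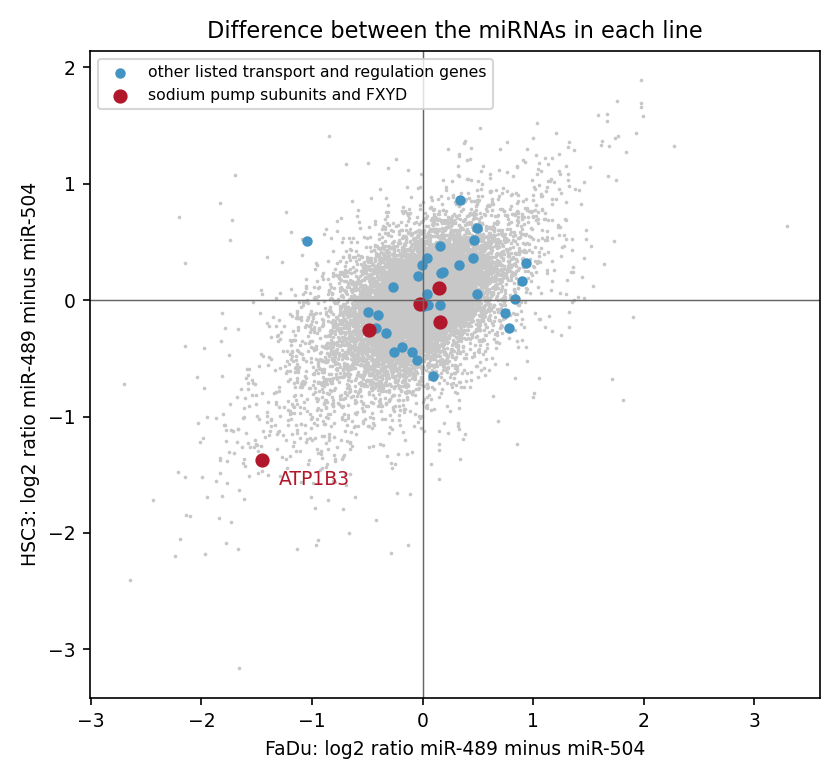
Difference between the log2 ratios of miR-489 and miR-504 in FaDu (horizontal axis) and HSC3 (vertical axis) for 15604 genes (grey), the pump subunits and FXYD genes (red) and the other transport and regulation genes listed (blue). ATP1B3 lies at −1.45 and −1.37, and the other 4 red points lie between −0.48 and 0.16 on the horizontal axis and between −0.25 and 0.10 on the vertical axis.

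A linear model was fitted with limma to 20914 probes with the control well above background on all arrays, with the lines taken as replicates of a microRNA. Its p-values were adjusted by Benjamini-Hochberg over all probes. They rest on the spread between 2 lines, pooled over the microRNAs and drawn by limma towards a value shared by all probes. The residual degrees of freedom were 2 and those of the shared value 3.21. Nothing states that the arrays of a line came from separate cultures. At an adjusted p of 0.05, 57.1% of probes were called after miR-489, 49.6% after miR-504, and 1.10% for the difference between the microRNAs. Calls after a single microRNA may also hold dye effects of probes, since no dye was swapped, and effects of any transfected microRNA against this control.
Of the 4 pump and FXYD genes reported here other than ATP1B3, 1 was called after each microRNA, and 0 for the difference, where 0 of the 4 also had an unadjusted p under 0.05. The called gene was FXYD5, with limma estimates of 1.32 after miR-489 (SE 0.0930, adjusted p = 0.000943) and 1.34 after miR-504 (adjusted p = 0.00136). With the cell line as a replicate block, limma called 59.5% and 53.0% of all probes after miR-489 and miR-504 and 2.76% for the difference, and 2 of the 4 genes after each microRNA and 0 for the difference. The genes added were ATP1A4 after miR-489 (adjusted p = 0.0197 in limma with the block) and FXYD3 after miR-504 (adjusted p = 0.0332). The counts with the block are near the shares over all probes. Without the block, 1 of 4 was below the shares of 57.1% and 49.6%, and 4 genes are too few to tell. The FXYD5 difference between the microRNAs in limma without the block was −0.02 (95% interval −0.35 to 0.32, adjusted p = 0.963).
ATP1B1 had a limma estimate of −0.07 after miR-489 (95% interval −0.31 to 0.17, adjusted p = 0.566) and −0.04 after miR-504 (−0.28 to 0.21, adjusted p = 0.771). Its difference between the microRNAs was −0.03 (95% interval −0.38 to 0.31, adjusted p = 0.933 in limma). For ATP1A4 the interval ran from −0.29 to 0.54 around a difference of 0.12 (adjusted p = 0.743 in limma). After miR-489 alone its brightest probe had a limma estimate of 0.34 (adjusted p = 0.0504) and its second probe 0.33 (adjusted p = 0.0216). FXYD3 had the largest difference of the 4, −0.37 (95% interval −0.75 to 0.01, adjusted p = 0.282 in limma). No interval or p-value is given for ATP1B3.

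Other genes that move ions or control the pump were read from lists of 16 other P-type ATPases, 23 sodium and potassium transporters and channels, and 9 regulators, of which 45 were on the array. Of these, 8 of 45 passed 2-fold in either direction on at least 1 array, as did 12.8% of all gene names on the array. SPTAN1, the spectrin that ties the pump to the membrane skeleton, was higher on all arrays, at log2 ratios of 1.52 and 1.67 with miR-489 and 1.33 and 1.43 with miR-504, in FaDu and HSC3. ATP13A1, a P5-type ATPase of the endoplasmic reticulum, was at 1.08 and 0.75 with miR-489 and 1.18 and 1.19 with miR-504.
SGK1, a kinase that raises pump and sodium channel activity, passed 2-fold on the FaDu miR-489 array alone, at 1.37, with 0.52 to 0.64 on the others. On the miR-504 arrays the copper pump ATP7B (−1.08) was past 2-fold lower in FaDu and the kinase PRKCA (−1.07) in HSC3. The sodium-calcium exchanger SLC8A1 lay on the 2-fold line in FaDu with miR-504, with a control signal of 53.5. ATP2B3 and SCNN1B, a calcium pump and an epithelial sodium channel subunit, passed 2-fold at control signals of at most 37.5, close to background, and no fold is given.
Among 32 of these genes measured on all arrays, limma called 7 lower and 11 higher after miR-489, and 8 lower and 8 higher after miR-504. These shares, 18 and 16 of 32, lay near the 57.1% and 49.6% of all probes called. It called 0 for the difference between the microRNAs, where 7 had an unadjusted p under 0.05.

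Outside these lists, the genes whose 4 log2 ratios lay nearest to those of ATP1B3, by Euclidean distance over the 4 arrays among 15603 genes, were THC2303869 (distance 0.156), ATP9A (0.248), RBBP4 (0.258), AK026697 (0.263) and SLC19A2 (0.278). ATP9A encodes a P4-type ATPase, RBBP4 a histone-binding chromatin protein, and SLC19A2 a thiamine transporter, and the other two are transcript records without a gene name. ATP9A had log2 ratios of −1.81 and −1.64 with miR-489 and −0.48 and −0.56 with miR-504, in FaDu and HSC3. These genes are a description of the shape of 4 values.

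The control channels gave the level of each gene in the lines without miR-489 or miR-504. Levels are log2 Cy3 signals minus the array median, compared for 1 probe at a time. For ATP1B3 they were 6.18 and 5.88 in FaDu and 5.62 and 5.87 in HSC3, so the lines came within 0.01 of overlapping, and HSC3 was 1.22-fold lower in the mean, or −0.29 on the log2 scale, with −0.26 to −0.16 under other scalings and without background subtraction. For ATP1B1 they were 2.85 and 3.01 in FaDu and 3.37 and 3.17 in HSC3, which made HSC3 1.26-fold higher, and the second ATP1B1 probe gave 1.27-fold.
FXYD3 overlapped between the lines. FXYD5 was 4.78-fold higher in HSC3 at its brighter probe, with levels of 1.19 and 1.47 in FaDu and 3.70 and 3.47 in HSC3, and 5.34-fold higher at its other probe. It was the 1 of 5 pump and FXYD genes that differed by at least 2-fold without overlap, as did 24.9% of all probes. Of 34 other transport and regulation genes compared in this way, 7 were higher and 5 lower in HSC3. Among the genes named above, SGK1, SPTAN1 and SLC8A1 were 3.96-fold, 5.45-fold and 2.01-fold higher in HSC3 and ATP7B was 2.13-fold lower. No test is given, since the control RNAs of a line may be the same RNA.

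**Figure D4:**
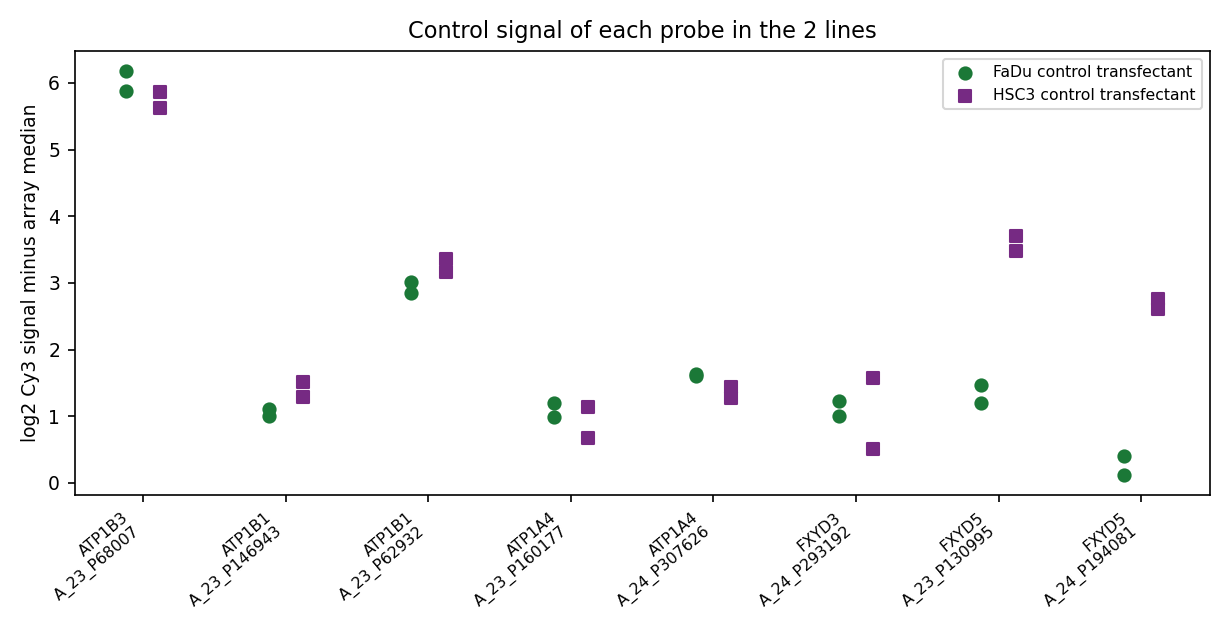
Control signal (log2 Cy3 minus the array median, vertical axis) of each pump and FXYD probe in the control transfectants; each point is 1 array, green circles are FaDu and purple squares HSC3. The FXYD5 probes separate the lines by 2.26 and 2.42, and the FaDu and HSC3 points of ATP1B3 lie side by side, from 5.62 to 6.18.

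The size of the ATP1B3 ratio moved with the processing, and the gap between the microRNAs moved little. Of the 11 alternatives tried, the mean of all probes and the settings that filter dim probes could not move a gene with 1 bright probe. The value table repeated the deposited ratios. Over all 11 the log2 ratio ran from −2.14 to −1.68 on the FaDu miR-489 array. On the HSC3 miR-489 array it ran from −1.95 to −1.56. On the miR-504 arrays it ran from −0.66 to −0.23 in FaDu and from −0.63 to −0.23 in HSC3. The lowest values came from settings that fit the dye bias along brightness, and the brightest quartile of probes had medians of 0.08 to 0.14 before such a fit. The difference between the microRNAs stayed between −1.49 and −1.41 in FaDu and between −1.41 and −1.31 in HSC3. In the deposited log ratios ATP1B3 was at −2.14 on the FaDu miR-489 array, past 4-fold, and at −1.95 on the HSC3 miR-489 array, short of it. The deposited ratios of both ATP1B1 probes lay between −0.34 and 0.23.

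**Figure D5:**
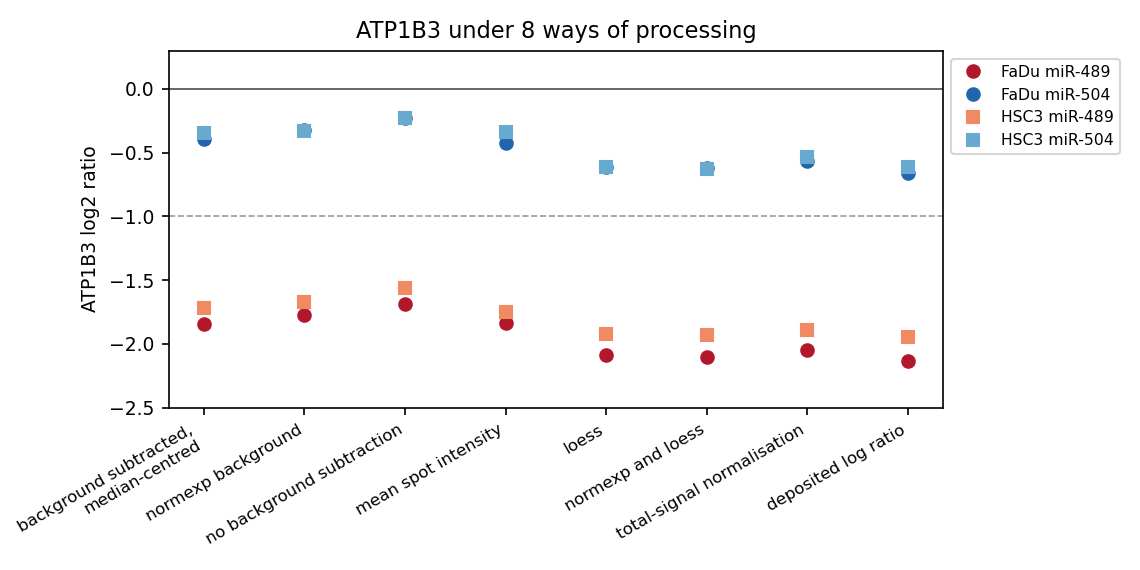
ATP1B3 log2 ratio (vertical axis) on each of the 4 arrays (colours and marks) under 8 ways of processing the scanner values (horizontal axis), the leftmost being the one used throughout; the dashed line marks 2-fold lower. The miR-489 points lie between −2.14 and −1.56 and the miR-504 points between −0.66 and −0.23 in all 8.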

How the data were processed

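Total RNA of 4 pairs of transfectants was hybridised to 4 two-colour arrays, and groups, dyes and time were taken from the labels. The authors deposited scanner output of Feature Extraction 9.5.3.1 (protocol GE2-v5_95_Feb07) giving median and mean intensities of spots and of their background, not normalised, and a log10 ratio of Cy5 over Cy3 made after spatial detrending and linear and LOWESS dye normalisation. The deposited table of values was identical to them, with 0 as its largest deviation. Marks of 0 or 1, which the authors also deposited, flag outliers, saturation and signal well above background. The methods describe ScanArray and DNASIS in place of this software.

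Background-subtracted median intensities were turned into log2 ratios and centred on the median of probes above background in both channels, following the global normalisation of the methods. The offset taken off was 0.58 and 0.65 in FaDu and 0.58 and 0.45 in HSC3, miR-489 before miR-504, and 118 to 137 outlier spots were left out. Cy3 was well above background for 58.2% to 59.2% of spots. A gene took its brightest probe. The precision is limited by the number of arrays. limma 3.58.1 in R 4.3.3 (with the data.table package, 1.17.8) gave adjusted p-values. Arrays of a line are paired by the cell line in the labels, and over 20914 probes their deviations from the means of the microRNAs had a correlation of 0.136. Python 3.11.15 with pandas 2.3.3, numpy 2.4.6 and matplotlib 3.10.9 made the plots. Of 26 pump, FXYD and NKAIN probes, 23 matched RefSeq by accession. Coordinates on the array have no stated build and are not given. The genes named are all member probes, all measured ATP1A4, X,K-ATPase, FXYD and NKAIN genes, members of other lists past 2-fold on any array, PTPN11, and the 5 genes nearest to ATP1B3. NKAIN genes and SGK1 carry older names on the array. Members and lists were chosen with earlier results of these data known. Alternatives changed the background, spot statistic, normalisation, probe choice, dim-probe filter, threshold, replicate block and left-out array. Some genes of the pump lists are not reported here.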

Additional observations from a re-analysis of the deposited data

How the results depend on the processing

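ATP1B3 kept its sign on all 4 arrays under every alternative, some of which could not change its value. Its log2 ratios, for FaDu before HSC3 and miR-489 before miR-504 within a line, were −1.68, −0.23, −1.56 and −0.23 without background subtraction, −2.09, −0.61, −1.92 and −0.61 with loess, −2.10, −0.62, −1.93 and −0.63 with normexp and loess, −2.05, −0.56, −1.89 and −0.53 with total-signal scaling, and −2.14, −0.66, −1.95 and −0.61 in the deposited log ratios and the value table. Total-signal scaling moved the median of all probes by −0.21, −0.17, −0.17 and −0.19. Pump genes counted as lower came to 10, 12, 14 and 10 of 19 with no filter on dim probes. There 36.9%, 35.5%, 39.8% and 36.2% of all genes were lower, and the filter had left 5 or 6 pump genes to count. At 4-fold 0 pump genes were lower on both miR-489 arrays, where 1.06% and 0.93% of all genes were. Pump genes counted as higher came to 0 on every array at 4-fold. With the mean of all probes of a gene they came to 0 on the FaDu miR-504 and HSC3 miR-489 arrays. The cause was not tested.

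limma calls after miR-504 numbered 10381, and 5512 with no filter on dim probes. Leaving out each array in turn gave 8537 to 10474 calls after miR-489, 3498 to 10919 after miR-504 (3498 without the FaDu and 4173 without the HSC3 miR-504 array), and 0 for the difference between the microRNAs whichever array was left out, with fewer residual degrees of freedom. That difference had 230 calls, and 663 with normexp, 498 without background subtraction, 791 with normexp and loess, 390 with deposited ratios and 0 with no filter on dim probes. With the cell line as replicate block it had 578, and none of the 4 pump and FXYD genes was among them (0). After each microRNA the replicate block called 2 of those 4 genes instead of 1, and 12453 and 11088 of 20914 probes in all. The second ATP1B1 probe passed after miR-489 (adjusted p = 0.0479, against 0.0808 in limma without the block). Differences between the microRNAs near 0 changed sign: with 1 array left out they ran from −0.131 to 0.0668 for ATP1B1 and from −0.127 to 0.0912 for FXYD5, which was at 0.0026 with mean spot intensity. The dim probes limit what can be said of ATP1B2.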
